A study of Mus musculus with 9 samples.

Results

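The S100 family was followed across 3 tissues, brown fat, white fat and the soleus, taken from male C57BL/6J mice of wild-type genotype at 3 months of age. The 10 members described are S100a1, S100a4, S100a6, S100a8, S100a9, S100a10, S100a11, S100a13, S100a16 and S100b. They were chosen from the family by gene symbol, with their RNA levels in these same libraries in view, so the levels and tissue differences of the members are given as a description and without p-values. They are 10 of 17753 genes in the table and 10 of its 17 S100 genes. RNA-seq libraries came from 3 samples of each tissue, 9 libraries in all, and the labels name 3 mice but do not tie libraries to them. All 3 tissues share strain, sex, age and wild-type genotype, and the labels name no treatment. The labels do not name the depot of the white fat. Brown fat produces heat, white fat is the main lipid store, and the soleus, a calf muscle used in standing, is rich in slow fibres. Levels are given as FPKM, fragments corrected for transcript length and for how many fragments of the library mapped, so levels of different genes can be compared. A mean is given ± SD over the 3 libraries of a tissue.

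S100 proteins are small calcium-binding proteins of the EF-hand type. Most work as dimers that change shape when they bind calcium and then dock onto target proteins such as annexins, myosin or calcium channels. Several are also released from cells and act on receptors at the surface, among them RAGE (the product of Ager) and Tlr4. In fat the family is known from S100b, long used as a marker of fat cells as well as of glia, and in muscle from S100a1.

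Libraries carried the marker genes of their labelled tissues. The 5 brown fat markers summed to between 11711 and 13058 FPKM in brown fat and to between 37.8 and 175.7 in white fat. In soleus they summed to between 4258 and 5633 FPKM, nearly all of it Cox8b. Cox8b had a mean of 4710.5 FPKM in soleus and 6386.8 in brown fat, so it does not mark brown fat off from soleus. The 5 slow muscle markers in the table summed to between 22231 and 26339 FPKM in soleus and to at most 7.07 in either fat. Fabp4, a fat cell marker, was listed at 0 in every library of both fats and at 617 to 1272 FPKM in soleus, so the 0 can be a failed estimate. Soleus libraries also held fat cell RNA in differing amounts, with Adipoq, the adiponectin gene, at 77.1, 31.8 and 12.4 FPKM in replicates 1, 2 and 3. Relative sequencing depth, read from the steps between the lowest FPKM values, was least in white fat replicate 2 (taken as 1) and greatest in white fat replicate 3 (3.56). Bulk tissue was measured, so fewer cells of a type and less RNA per cell cannot be told apart in any of the differences below.

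The 10 members together held a larger share of all FPKM in white fat than in brown fat or soleus. Their summed level was 1350.3 ± 30.4 FPKM in brown fat, against 1450.3 ± 95.4 for white fat and 697 ± 99.8 for soleus (SD, n = 3). As a share of all FPKM in the library this was 0.401%, 0.648% and 0.212% on average, and the libraries of the 3 tissues did not overlap in this share. All FPKM of a library summed to 214066 to 235019 in white fat and to 328326 to 343132 in brown fat. These totals count Fabp4 as 0 in both fats, so the share of FPKM need not be the share of RNA. The make-up of the sum differed between tissues. S100a1 was 54.4% of the summed level in brown fat and 54.7% in soleus but 21.2% in white fat, where S100a11 and S100a10 took 25.1% and 24.8%. S100a13 was the second member in brown fat with 16.3%, and S100a6 was the second in soleus with 13.95%.

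**Figure D1:**
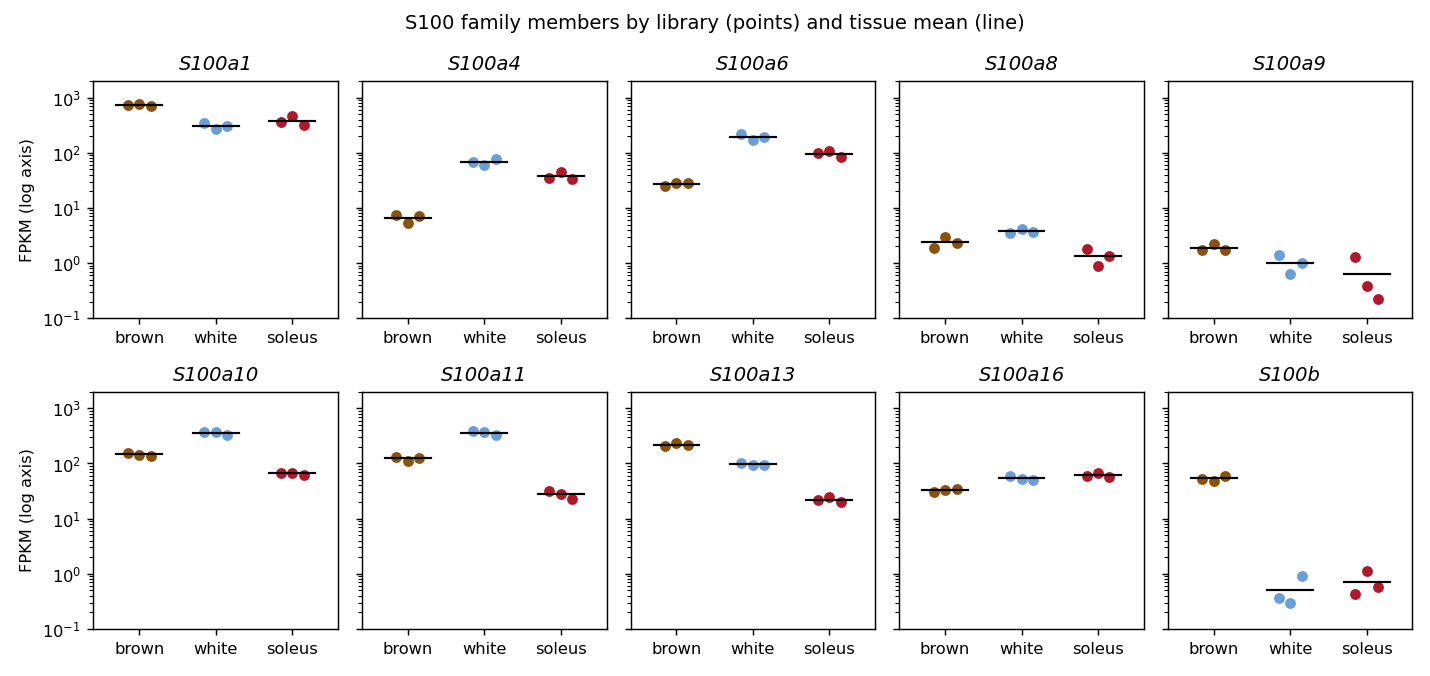
FPKM of each member on a log axis, with a point for each library and a line at the mean of the 3 libraries of a tissue. S100b stands near 50 FPKM in brown fat and near or under 1 elsewhere, S100a4 and S100a6 are lowest in brown fat, and S100a10 and S100a11 are highest in white fat.

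In brown against white fat, 4 members had all 3 brown fat libraries above all 3 of white fat and 6 had them all below. Over the 9913 genes tested, those shares were 40.6% and 36.9%. Brown fat stood wholly above soleus for 7 members and wholly below for 3, where 54.1% and 27% of all genes did so. White fat stood wholly above soleus for 6 members and wholly below for none, against 55.1% and 30.5% of all genes. Because the members were chosen with these levels in view, nothing is read from the counts. The median member differed by -0.62 log2 units in brown against white fat, 0.91 in brown fat against soleus and 0.93 in white fat against soleus, where the medians over all genes were 0.03, 0.29 and 0.35. The size of a difference depended on the scaling, and in brown against white fat it ranged over 4 other scalings from 0.60 to 1.24 for S100a13, -2.15 to -1.22 for S100a10, -2.41 to -1.48 for S100a11 and -1.19 to -0.36 for S100a8. All 10 passed the filter of at least 1 FPKM in at least 3 libraries. S100b did so through its 3 brown fat libraries and 1 of soleus, and S100a9 through 3 of brown fat, 1 of white fat and 1 of soleus.

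**Figure D2:**
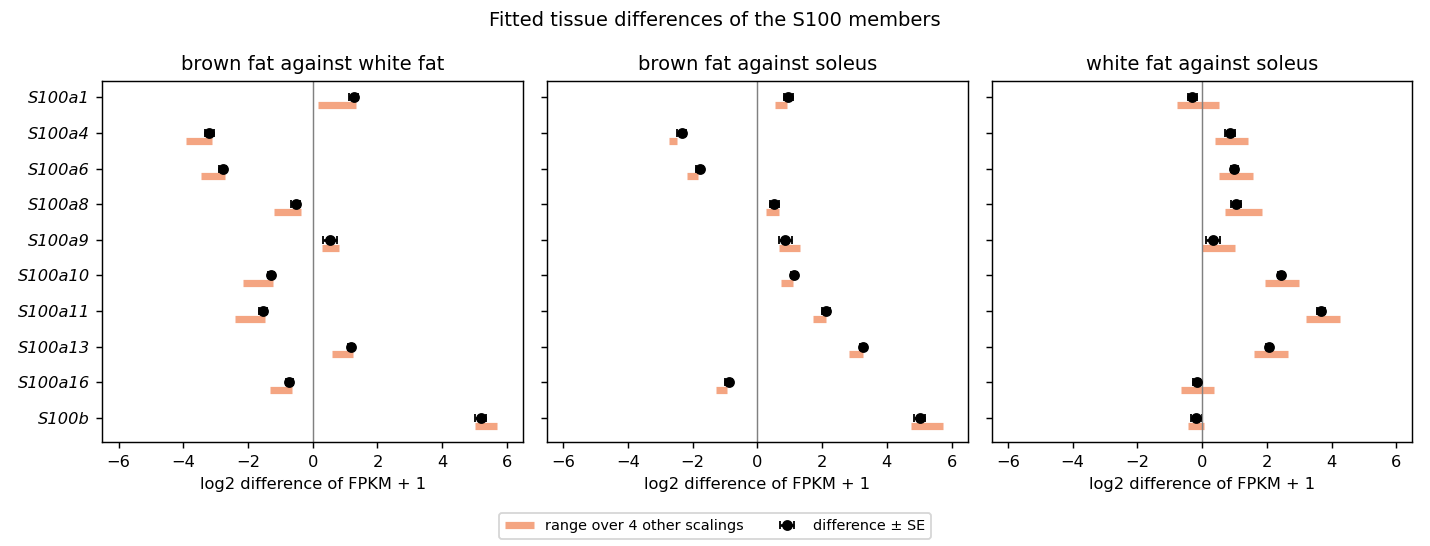
Difference of each member between tissues in log2 units of FPKM + 1, with points for the fitted difference, bars for its SE, and bands for the range over 4 other scalings of the libraries. Bands cross 0 in white fat against soleus for S100a1, S100a16 and S100b and lie on 1 side of 0 elsewhere.

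S100a1 binds the ryanodine receptor and the calcium pump of heart and skeletal muscle, and it was the most abundant member in brown fat and soleus. It stood at 738, 764 and 704 FPKM in brown fat, at 340, 276 and 306 in white fat and at 368, 461 and 320 in soleus. All brown fat libraries lay above all others, while white fat and soleus overlapped. Brown fat exceeded white fat by 1.26 log2 units (SE 0.14), a ratio of means of 2.39, and soleus by 0.95 (SE 0.14), a ratio of 1.92. After quantile normalization the first difference was 0.18. White fat against soleus differed by -0.31 log2 units (SE 0.14), and this turned to 0.25 with TPM rescaling and 0.53 with quantile normalization. By mean level S100a1 ranked 73rd of all genes in brown fat, against 86th in white fat and 123rd in soleus.

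S100a13, which takes part in the release of the growth factor Fgf1 from cells, followed S100a1 in fat but not in muscle. It stood at 211, 234 and 217 FPKM in brown fat, at 102, 92.2 and 95.8 in white fat and at 21.8, 25.1 and 19.8 in soleus. The 3 tissues did not overlap. Brown fat exceeded white fat by 1.18 log2 units (SE 0.10) and soleus by 3.26 (SE 0.10), a ratio of means of 9.93. The ratio of S100a1 to S100a13 was 3.34 ± 0.137 in brown fat, against 3.17 ± 0.165 for white fat and 17.1 ± 1.13 for soleus (SD, n = 3). The genes with the patterns most like S100a1, by the root mean square difference of centred log2(FPKM + 1) values over the 9 libraries, were Ppdpf (0.089), Mtg1 (0.092) and Edf1 (0.115). By this measure a scarce gene can be close to a member without having the same ratios between tissues. For S100a13 they were Ppp2r5a (0.112), Dpyd (0.140) and Ptms (0.151).

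S100a1 and S100a13 lie head to head and are read in opposite directions, so a single stretch of DNA precedes both. The stretch is shown because the levels of the 2 genes stood in nearly the same ratio in both fats and in another in soleus. RefSeq places 104 bases between their starts. Exons in GENCODE M21 leave 42 of these free, at chr3:90514393-90514434 of build GRCm38.p6, here on the plus strand, the direction of S100a13.
S100a1 and S100a13 shared stretch: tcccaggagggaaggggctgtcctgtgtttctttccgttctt
None of 5 searched motifs lies in it on either strand, so nothing is in capitals. The motifs were the TATA box TATAAA, the GC box GGGCGG, the AP-1 site TGANTCA, the E-box CANNTG and the estrogen-related receptor element TCAAGGTCA. In the last 42 bases before all 32851 starts of the RefSeq promoter table, 3.13%, 13.3%, 0.886%, 14.7% and 0.0335% hold them. These starts are those of the promoter table. In the RefSeq gene table, which spans all models of a gene, S100a13 reaches into S100a1 on the opposite strand, and whether the authors counted by strand is not given in the sources used here, so reads in the overlap cannot be assigned with certainty.

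S100a10 forms a complex with annexin A2 at the cell membrane and, unlike its relatives, works without binding calcium. It stood at 156, 145 and 137 FPKM in brown fat, at 379, 371 and 327 in white fat and at 68.2, 66.3 and 63.1 in soleus. White fat lay above brown fat, and brown fat above soleus, in all libraries. Brown fat differed from white fat by -1.29 log2 units (SE 0.09) and from soleus by 1.14 (SE 0.09), and white fat from soleus by 2.43 (SE 0.09).

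S100a11, a partner of annexin A1, had the same order of tissues. Its values were 134, 112 and 125 FPKM in brown fat, against 381, 379 and 330 for white fat and 31.8, 28.0 and 22.9 for soleus. The libraries did not overlap between tissues, and white fat exceeded soleus by 3.68 log2 units (SE 0.12), a ratio of means of 13.2. S100a10 and S100a11 are neighbours on the chromosome and stood at almost equal levels in white fat, with a ratio of 0.988 ± 0.00799, against 1.19 ± 0.105 in brown fat and 2.42 ± 0.311 in soleus (SD, n = 3). In soleus S100a11 was highest in replicate 1 and lowest in replicate 3, as Adipoq was, and the part of fat cell RNA in these values was not tested. The RefSeq gene table lists a pseudogene of S100a11, S100a11-ps, so reads may have been divided between them. Most like S100a10 were Mmp28 (0.091), Pdgfc (0.094) and Znrf2 (0.104), and most like S100a11 were Pank3 (0.142), Mpp1 (0.148) and Cd302 (0.164). Mmp28 and Pdgfc were scarce in soleus, at means of 0.422 and 0.646 FPKM against 7.21 and 6.80 in white fat, so their ratios between tissues were wider than that of S100a10.

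S100a4, which binds non-muscle myosin and is widely used as a fibroblast marker, was lowest in brown fat. It stood at 7.31, 5.42 and 7.14 FPKM in brown fat, at 69.3, 60.4 and 76.6 in white fat and at 34.7, 45.04 and 32.8 in soleus. No library of a tissue overlapped another tissue. Brown fat differed from white fat by -3.20 log2 units (SE 0.14), a ratio of means of 10.4 in favour of white fat, and from soleus by -2.33 (SE 0.14).

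S100a6, also called calcyclin, had the pattern nearest to S100a4 among the 45 pairs of members, with a root mean square difference of 0.290. It stood at 25.4, 28.7 and 28.2 FPKM in brown fat, at 223, 173 and 190 in white fat and at 99.8, 107 and 84.4 in soleus. Again the tissues did not overlap, and brown fat differed from white fat by -2.78 log2 units (SE 0.12) and from soleus by -1.78 (SE 0.12). The genes most like S100a6 were Cd63 (0.112), Islr (0.147) and Capg (0.172), and those most like S100a4 were Aldh1a2 (0.240), Mfap5 (0.242) and Nbl1 (0.247). Aldh1a2 was scarce in brown fat, with a mean of 0.118 FPKM against 8.49 in white fat, a wider ratio than that of S100a4. Brown fat lay below white fat for all 9 fibroblast and progenitor markers in the table (limma adjusted p under 0.05), the direction of both members. Against soleus, brown fat was lower for 6 of the 9 at that threshold. Among all genes, 34.8% and 25.6% were lower in brown fat in these comparisons. The other differences against soleus were -0.195 log2 units for Lum, -0.244 for Pdgfra and 0.104, the other way, for Col3a1. The 9 of 10 such markers in the table came in sum to 287.5 to 321 FPKM in brown fat, 1731 to 1814 for white fat and 447 to 564 for soleus, with none at 0. Macrophage markers, 8 of 10 in the table, came in sum to 48.8 to 57.5 FPKM in brown fat, 467 to 586 for white fat and 33.2 to 46.8 for soleus. Mesothelial markers, 7 of 8 in the table, came in sum to 1.24 to 1.46 FPKM in brown fat, 75.0 to 112.5 for white fat and 0.341 to 2.41 for soleus, with Wt1 and Krt8 at 0 in brown fat. The part of any of these cells in the levels of S100a4 and S100a6 was not tested.

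The stretches before the starts of S100a4 and S100a6 are shown because these near neighbours moved together. Both are from RefSeq, build GRCm38.p6, plus strand, and end before the first exon. They span chr3:90603520-90603769 for S100a4 and chr3:90612644-90612881 for S100a6. Capitals mark matches to the 5 motifs.
S100a4: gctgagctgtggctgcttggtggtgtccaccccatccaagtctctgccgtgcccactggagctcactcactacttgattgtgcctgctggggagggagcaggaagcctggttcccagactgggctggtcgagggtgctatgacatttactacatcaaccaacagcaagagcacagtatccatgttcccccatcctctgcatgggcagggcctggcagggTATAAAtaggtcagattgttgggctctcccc
S100a6: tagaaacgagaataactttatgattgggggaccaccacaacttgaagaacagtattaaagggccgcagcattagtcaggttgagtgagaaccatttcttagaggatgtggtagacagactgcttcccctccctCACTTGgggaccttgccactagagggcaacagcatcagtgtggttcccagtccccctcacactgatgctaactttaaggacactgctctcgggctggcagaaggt
The S100a4 stretch holds a TATA box that begins 31 bases before the start, as 12.4% of all promoters do somewhere in the same window, and none of the other motifs. The S100a6 stretch holds an E-box, found in 64.5% of all promoters over that length, and none of the others.

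S100a16, a broadly expressed member, had the narrowest range of tissue means, from 32.7 to 61.4 FPKM, among the members above 10 FPKM in all tissues. It stood at 30.3, 32.7 and 35.0 FPKM in brown fat, at 60.5, 53.0 and 50.01 in white fat and at 58.6, 67.7 and 57.8 in soleus. Brown fat lay below both other tissues, by -0.72 log2 units against white fat (SE 0.10) and -0.89 against soleus (SE 0.10). White fat and soleus overlapped, with a difference of -0.17 (SE 0.10) that turned to 0.38 with TPM rescaling. Flot1 (0.095), Map3k14 (0.097) and Tceal9 (0.097) were most like it.

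S100b, a neurotrophic protein of glia and fat cells, set brown fat apart most widely. It stood at 52.9, 48.7 and 59.4 FPKM in brown fat, at 0.367, 0.289 and 0.899 in white fat and at 0.428, 1.13 and 0.572 in soleus. Every brown fat library lay far above all others, and white fat and soleus overlapped. The differences were 5.19 log2 units against white fat (SE 0.17) and 5.02 against soleus (SE 0.17), with ratios of means of 103.6 and 75.5. White fat replicate 3 held the highest of the white fat values, and without it the first ratio was 163.6. White fat against soleus was -0.17 (SE 0.17), and 0.045 with TPM rescaling. The levels in white fat and soleus rest on few fragments, and the pseudocount moved the difference against white fat between 3.41 and 6.57. In the white fat libraries S100b and Ucp1, the uncoupling protein gene of brown fat, were highest in replicate 3 and lowest in replicate 2, with Ucp1 at 7.81, 1.45 and 35.7 FPKM in replicates 1, 2 and 3. Relative depth had the same order, at 1.38, 1.0 and 3.56. The part of brown fat cell RNA in these S100b values was not tested. Aspg (0.353), Kng2 (0.403) and Slc27a2 (0.491) had the patterns most like S100b.

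Markers of Schwann cells, which also carry S100b, did not follow the same order of tissues. The 10 of 11 in the table came in sum to 14.99 to 18.8 FPKM in brown fat, 5.68 to 6.51 for white fat and 9.99 to 47.4 for soleus, with none at 0 in a whole tissue. Their defining factor Sox10 stood at 0.273, 0.485 and 0.290 FPKM in brown fat, at most 0.0682 in white fat and at 0.210, 0.277 and 0.244 in soleus. Clstn3 was looked up outside the naming rule, after its values were seen, because a brown fat form of its protein is known to promote the release of S100b. It stood at 157.7, 177.5 and 152.9 FPKM in brown fat, at 9.10, 15.6 and 7.79 in white fat and at 0.945, 0.565 and 0.252 in soleus, so that brown fat lay wholly above white fat and white fat above soleus. The table holds the gene as a whole, and its brown fat form was not measured apart.

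The 250 bases before the start of S100b are shown for the member with the widest difference. They span chr10:76253586-76253835 of GRCm38.p6 on the plus strand (RefSeq), with the matching motif in capitals.
S100b: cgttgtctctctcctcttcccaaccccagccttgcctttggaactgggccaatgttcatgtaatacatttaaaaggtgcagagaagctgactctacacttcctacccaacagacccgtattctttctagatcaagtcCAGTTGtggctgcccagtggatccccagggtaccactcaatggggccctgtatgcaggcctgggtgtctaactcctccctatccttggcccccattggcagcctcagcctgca
An E-box lies in it, as in 66.2% of all promoters, and none of the other motifs does.

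S100a8 and S100a9 pair to form calprotectin, an abundant protein of neutrophils and monocytes, and were the scarcest members in brown fat. S100a8 stood at 1.87, 2.94 and 2.28 FPKM in brown fat, at 3.58, 4.21 and 3.67 in white fat and at 1.79, 0.898 and 1.37 in soleus. All white fat libraries lay above all of brown fat, and all of brown fat above all of soleus. S100a9 stood at 1.74, 2.21 and 1.70 FPKM in brown fat, at 1.395, 0.644 and 0.991 in white fat and at 1.30, 0.389 and 0.222 in soleus. Here brown fat lay above both others, and white fat overlapped soleus. The ratio of S100a8 to S100a9 ran from 1.08 to 1.35 in brown fat, from 2.56 to 6.54 in white fat and from 1.38 to 6.16 in soleus.

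These partner subunits thus differed in opposite directions between the fats, S100a8 by -0.53 log2 units (SE 0.15) and S100a9 by 0.53 (SE 0.21) in brown against white fat. Neutrophil markers, 13 of 14 in the table, came in sum to 1.4 to 1.68 FPKM in brown fat, 11.5 to 17.3 for white fat and 0.195 to 0.923 for soleus. All 13 stayed under 1 FPKM in brown fat and in soleus. Fpr1 was at 0 throughout brown fat, Ngp and Stfa2l1 in white fat, and Mpo, Ngp and Stfa2l1 in soleus. In white fat Mmp9, at 9.84, 7.95 and 10.6 FPKM, made up most of the sum, and the part of neutrophils in S100a8 and S100a9 was not tested. Pkd1 (0.134) and Stk10 (0.135) were among the genes most like S100a8, and Gin1 (0.176), Zfp213 (0.217) and Zc3h10 (0.219) were most like S100a9.

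The rest of the family was listed at low values or at 0. Of 11 further S100 genes looked for, 7 were in the table, and of 7 genes of the fused type, in which an S100 domain heads a long skin protein, 6 were. None of these 13 genes reached 1 FPKM in any library, and 6 were listed at 0 in all 9. As with Fabp4, a listed 0 can be a failed estimate, so for these 6 no level is read from it. The highest value among them was 0.502 FPKM, for S100a7a in white fat replicate 2. Among the members, S100a9 had the lowest peak, at 2.21 FPKM.

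In RefSeq 15 S100 genes, 9 of them members, lie on mouse chromosome 3, and S100b lies on chromosome 10. S100a14 lies between S100a13 and S100a16 and did not pass 0.147 FPKM. S100a5 lies between S100a4 and S100a6 and did not pass 0.140. S100a3 and S100a2, between S100a16 and S100a4, reached at most 0.151 FPKM and were listed at 0 throughout, respectively. S100a1 and S100a13 were highest in brown fat, S100a4, S100a6, S100a10 and S100a11 were so in white fat, while S100a8 was highest in white fat and S100a9 in brown fat.

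**Figure D3:**
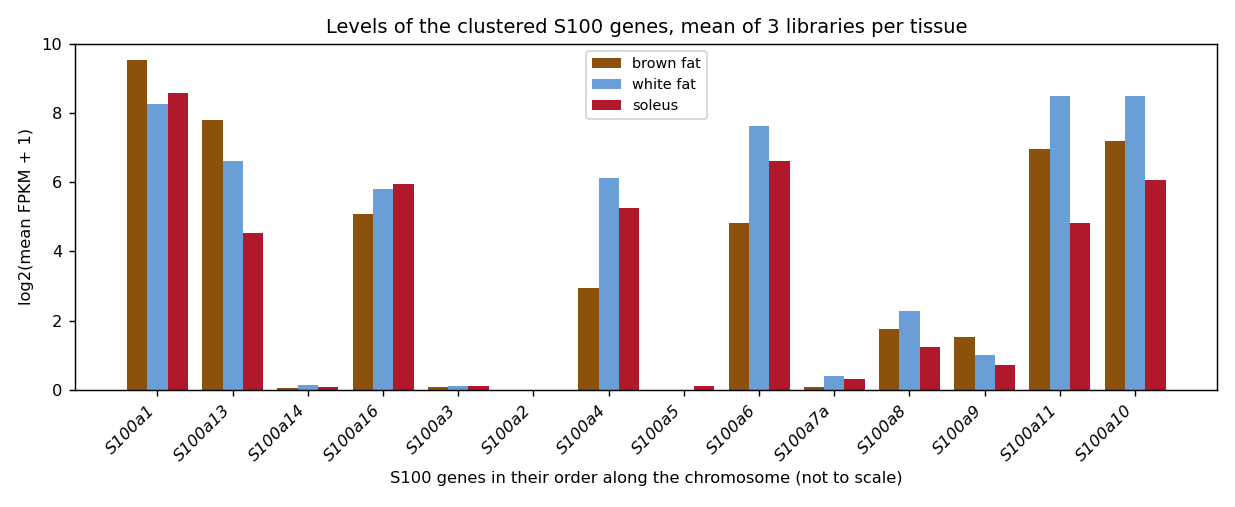
Mean level of each clustered S100 gene in the table as log2 of mean FPKM + 1, with a bar for each tissue and genes in their order along the chromosome. S100a14, S100a3 and S100a5 stay near 0 while lying between members above 5 FPKM in every library, and S100a7a, S100a8 and S100a9 are low. S100a2 is listed at 0 throughout, which can be a failed estimate, so no level is read for it.

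S100 proteins act through the proteins they bind, and 19 genes of such partners, none of them a member, were listed from what is known of S100 binding. Ager was too low to be tested. With limma and an adjusted p under 0.05 over all genes, brown fat was higher than white fat for 5 of the 18 others and lower for 9. Among all genes it was so for 38% and 34.8%. Against soleus, brown fat was higher for 7 and lower for 7, where 52.9% and 25.6% of all genes were. White fat was higher than soleus for 9 and lower for 8, against 54.5% and 29.7% of all genes. These counts hold Alcam and Ttn, which passed the filter through white fat and through soleus alone. The partners' median differences were -0.46, 0.07 and 0.67 log2 units, beside 0.03, 0.29 and 0.35 over all genes.

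Anxa2, the partner of S100a10, stood at 145, 146 and 198 FPKM in brown fat, at 561, 497 and 448 in white fat and at 54.6, 46.2 and 37.4 in soleus. It was lower in brown than in white fat by -1.63 log2 units (SE 0.16, limma adjusted p = 4.9e-06) and higher in brown fat than in soleus by 1.80 (SE 0.16, limma adjusted p = 1.5e-06). The ratio of S100a10 to Anxa2 was 0.922 ± 0.204 in brown fat, against 0.717 ± 0.0381 for white fat and 1.46 ± 0.2198 for soleus (SD, n = 3). Ahnak, a giant scaffold protein that binds the complex of S100a10 and annexin A2, stood at 43.6, 36.2 and 44.3 FPKM in brown fat, at 103.5, 117.3 and 114.7 in white fat and at 17.5, 15.6 and 16.1 in soleus. Its difference was -1.42 log2 units in brown against white fat (SE 0.09, limma adjusted p = 2.0e-07) and 2.69 in white fat against soleus (SE 0.09, limma adjusted p = 7.7e-10). S100a10, Anxa2 and Ahnak thus all had white fat highest and soleus lowest, with no overlap between tissues. This order was not particular to them, as S100a8, S100a11, Myh9 and Cd36 also had it without overlap. Over all genes tested, brown fat lay wholly below white fat for 36.9% and wholly above soleus for 54.1%. The share of genes with both was not counted.

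Anxa1, the partner of S100a11, had another order. It stood at 9.83, 11.8 and 13.01 FPKM in brown fat, at 253, 240 and 200 in white fat and at 27.7, 24.6 and 18.8 in soleus, so brown fat lay below soleus. Brown fat was lower than white fat by -4.21 log2 units (SE 0.15, limma adjusted p = 2.3e-09) and lower than soleus by -0.97 (SE 0.15, limma adjusted p = 1.2e-04). The ratio of S100a11 to Anxa1 was 10.9 ± 2.34 in brown fat, against 1.58 ± 0.0738 for white fat and 1.17 ± 0.0425 for soleus (SD, n = 3).

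**Figure D4:**
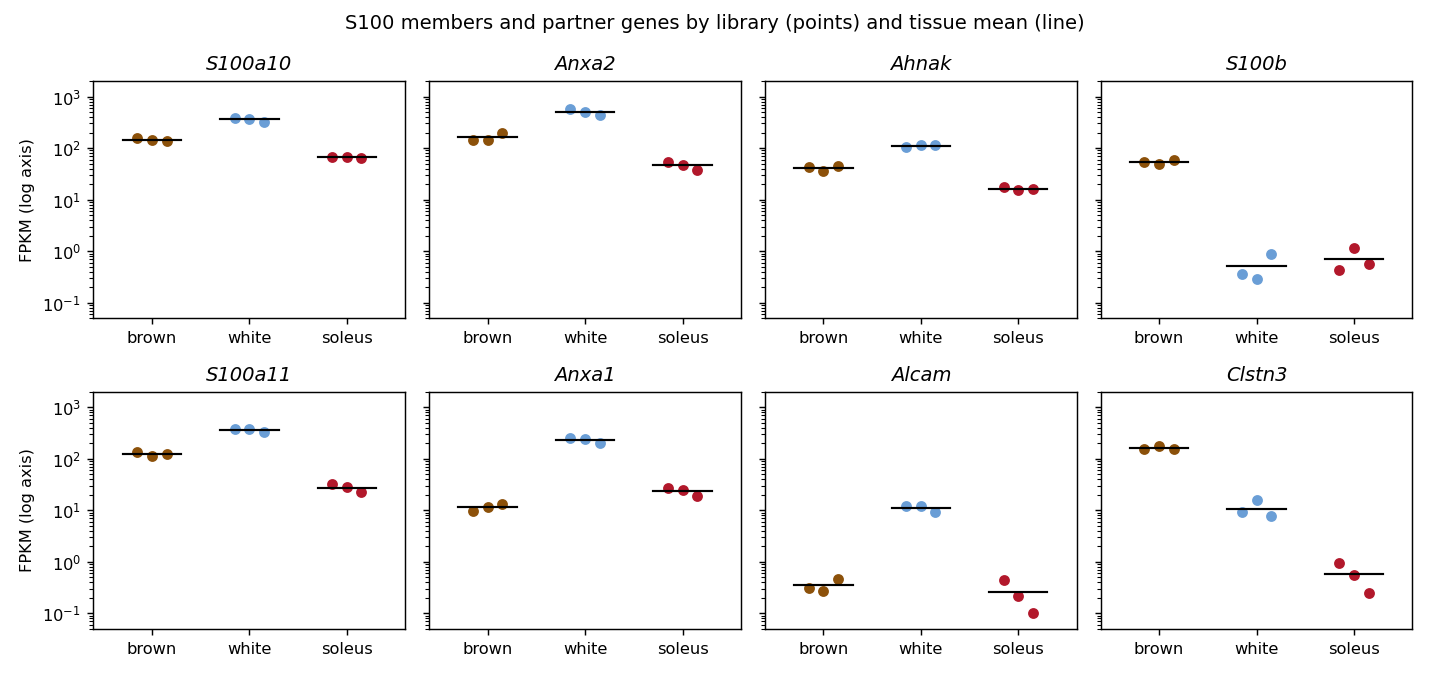
FPKM on a log axis of S100a10 with its partners Anxa2 and Ahnak, S100a11 with its partner Anxa1, the receptor gene Alcam, and S100b with Clstn3, with a point for each library and a line at the mean of 3. S100a10, Anxa2 and Ahnak fall from white fat to brown fat to soleus, while Anxa1 is lowest in brown fat.

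The partners Cacybp, Myh9 and Fgf1 each parted from the S100 member in some pair of tissues. Cacybp, which binds S100a6, stood at 37.3, 25.1 and 27.6 FPKM in brown fat and 16.9, 14.6 and 14.9 in white fat. It was higher in brown fat by 0.89 log2 units (SE 0.14, limma adjusted p = 1.8e-04), where S100a6 was lower in brown fat. Against soleus, at 20.2, 26.1 and 23.5 FPKM, it differed by 0.34 (SE 0.14, limma adjusted p = 0.046), which missed the threshold without brown fat replicate 1 (adjusted p = 0.18), brown fat replicate 3 (0.055), white fat replicate 2 (0.052), white fat replicate 3 (0.057), soleus replicate 1 (0.16) or soleus replicate 3 (0.082) and with the replicate number as a block (0.063). Its direction turned with upper quartile and median of ratios scaling. Myh9, the non-muscle myosin bound by S100a4, was highest in white fat, at 26.1, 34.5 and 29.4 FPKM, against 22.3, 19.2 and 19.7 in brown fat and 7.99, 6.73 and 9.89 in soleus. S100a4 was also highest in white fat, but it was lowest in brown fat and Myh9 in soleus. Fgf1, released with the help of S100a13, was lowest in brown fat, at 3.04, 4.01 and 5.84 FPKM, against 25.8, 26.4 and 17.6 for white fat and 16.8, 18.1 and 19.1 for soleus. Fgf1 was lower in brown than in white fat by -2.21 log2 units (SE 0.19, limma adjusted p = 1.4e-06), where S100a13 had brown fat highest.

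Receptors for released S100 proteins differed widely in level. Ager, the gene of RAGE, did not pass 0.248 FPKM in any library and was not tested. Tlr4, a receptor for S100a8 and S100a9, stood at 1.51, 1.70 and 1.95 FPKM in brown fat, at 4.98, 7.09 and 5.199 in white fat and at 2.40, 2.08 and 2.03 in soleus, and was lower in brown than in white fat by -1.30 log2 units (SE 0.12, limma adjusted p = 2.1e-06). Alcam, an adhesion receptor, stood at 0.315, 0.267 and 0.474 FPKM in brown fat, at 11.9, 11.9 and 9.31 in white fat and at 0.448, 0.2202 and 0.103 in soleus. Its white fat libraries lay far above the rest. Alcam passed the filter through white fat alone, so its difference is given by these levels and without a p-value. Bsg, which binds S100a9, ranged from 181 to 325 FPKM over the 9 libraries, and its direction turned with the scaling in each comparison. Cd36, a fatty acid transporter also listed as a receptor, was the most abundant of the 5 in both fats, at 664 ± 29.3 FPKM in brown fat, against 1016 ± 87.7 for white fat and 217 ± 13.4 for soleus (SD, n = 3).

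Muscle targets of S100a1 were far higher in soleus, although S100a1 itself was highest in brown fat. Ryr1, the ryanodine receptor of skeletal muscle, stood at 169.9, 203.5 and 272.7 FPKM in soleus and at 0.204, 1.83 and 0.811 in brown fat. Brown fat lay below soleus by -6.86 log2 units (SE 0.27, limma adjusted p = 1.9e-09). Atp2a2, the calcium pump of slow fibres and many other cells, stood at 56.7, 59.6 and 53.5 FPKM in brown fat, at 26.8, 26.4 and 27.8 in white fat and at 747, 822 and 1038 in soleus. It was higher in brown than in white fat by 1.04 log2 units (SE 0.11, limma adjusted p = 1.1e-05), the direction that S100a1 also had. Atp2a1, the pump of fast fibres, varied between brown fat libraries, at 3.39, 28.6 and 13.5 FPKM, as the titin gene Ttn did, at 0.0680, 0.399 and 0.251. Ryr1, Atp2a1 and Atp2a2 were lower in both fats than in soleus at an adjusted p under 0.05 (limma), as 25.6% of all genes were in brown fat and 29.7% in white fat. Ttn, at 49.9, 44.2 and 91.2 FPKM in soleus and at most 0.00603 in white fat, passed the filter through soleus alone, and no p-value is read for it.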

How the data were processed

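The authors deposited a single table of FPKM values with 18401 rows named by RefSeq accessions and 9 columns, 1 for each library, whose names match the sample titles. Per the submitters' processing notes, TopHat 1.4.1, Cufflinks 2.0.1 and the mouse build mm9 were used, and per the labels' protocols RNA was extracted with TRIzol and libraries were made with an Illumina TruSeq kit. Rows were matched to symbols (18305 by a RefSeq gene table, 38 by GENCODE), and the FPKM of rows of a symbol was summed, giving 17753 genes. Each member had 1 row. The gene table is of another build than mm9, so it gave names and neighbours alone, and printed sequences carry their own build, GRCm38.p6. A promoter was found for 9 of the 10 members. No proteins were used here.

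Read totals are not given in the sources used here. Relative depths were read from the steps between values up to 0.3 FPKM, and 35 of 36 library pairs fell within 0.05 log2 units of 1 set of depths.

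A linear model in limma 3.58.1 (R 4.3.3) took log2(FPKM + 1) of all 9 libraries, let the variance depend on the mean, and had 6 residual degrees of freedom. It used the 9913 genes that reached 1 FPKM in 3 libraries or more. The pseudocount makes differences of low genes look smaller than they are. Tests were two-sided, p-values were adjusted by Benjamini-Hochberg over all genes of a comparison, and the threshold was 0.05. The fit was tested on simulated data. Named genes were the members, the rest of the family, the partner genes and, for each member, the 3 genes outside the family most like it. Likeness was the smallest root mean square difference of centred log2(FPKM + 1) values, passing over genes listed at 0 in a tissue. Some genes that this rule or the marker lists name are not reported here. The members, gene lists and tests were chosen with earlier results of these data known. The labels do not say that libraries came from separate mice, so p-values measure the spread between these libraries, which may be technical. Alternatives covered pseudocount, filter, scaling, libraries in the fit, variance trend, replicate block, rows per symbol and each library left out.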

Additional observations from a re-analysis of the deposited data

How the results depend on the processing

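Over the 21 alternatives, 27 of the 30 member differences kept their sign. The exceptions lay in white fat against soleus. S100a1 turned to 0.25 with TPM rescaling and 0.527 with quantile normalization, S100a16 turned to 0.383 with TPM rescaling, and S100b, with overlapping libraries, to 0.045 with TPM rescaling. Of 54 partner differences, 40 kept their call in all alternatives. Turned values in brown against white fat were those of Anxa5 at -0.323 with TPM rescaling and -0.583 with quantile normalization, and of Bsg at -0.237 with quantile normalization. In brown fat against soleus, upper quartile and median of ratios scaling turned Bsg to -0.287 and -0.325, Cacybp to -0.021 and -0.057, and Sugt1 to -0.3 and -0.337, and quantile normalization turned Sugt1 to -0.251. In white fat against soleus Bsg turned to 0.028 with TPM rescaling and 0.14 with quantile normalization. The cause was not tested.

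Scaling also moved sizes. In brown against white fat, TPM rescaling gave -3.904 for S100a4, -3.4 for S100a6, -1.187 for S100a8, -1.317 for S100a16, 0.673 for S100a1 and 0.597 for S100a13. Quantile normalization gave 0.178 for S100a1, -3.454 for S100a6, -2.149 for S100a10 and -2.406 for S100a11. In white fat against soleus, TPM rescaling gave 1.852 for S100a8, 1.015 for S100a9, 4.271 for S100a11 and 2.668 for S100a13. In brown fat against soleus it gave 5.725 for S100b. TPM rescaling raised all values before the pseudocount of 1 was added, so the pseudocount weighed less on low genes such as S100b, S100a8 and S100a9. How much of their change came from this was not tested.

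Over all genes the count of calls stayed within 1.5 times in all alternatives run, but the split moved. In brown against white fat 52.2% of calls were higher in brown fat, and 22.6% with TPM rescaling, which moved the median of all genes from 0.03 to -0.495 log2 units. In brown fat against soleus 67.4% were higher, and 49.3% with median of ratios scaling (median 0.29 to -0.01). In white fat against soleus 64.7% were higher, 78.8% with TPM rescaling (median 0.35 to 0.93) and 48.7% with median of ratios scaling (median -0.02).

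Replicate numbers were tried as pairs. Deviations of same-numbered libraries from their tissue means correlated at -0.22 to 0.077. With 3 libraries per tissue the deviations depend on each other, so these values cannot decide whether the numbers pair the libraries. Higher values joined other numbers, up to 0.361 for white fat replicate 1 with soleus replicate 2. The labels do not tie libraries to mice, and whether libraries of different numbers share a mouse was not tested. With the replicate block the partner genes called numbered 15, 13 and 17 in the 3 comparisons in place of 14, 14 and 17. Depth limits the lowest members most, S100a8 and S100a9 in every tissue and S100b in white fat and soleus, whose levels of a few FPKM or less move with the pseudocount.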
